A study of Mus musculus with 6 samples.

Results

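Proteasome genes were taken from the heart transcript files by symbol: every protein-coding gene whose symbol starts with Psma, Psmb, Psmc, Psmd, Psme, Psmf or Psmg, apart from the immunoproteasome subunits Psmb8, Psmb9 and Psmb10. The rule found 47 genes of the 36757 in the files, 20822 of them protein-coding. Hearts came from 32-week-old mice of 2 genotypes. ApoE-/- littermates, which lack apolipoprotein E, gave libraries 1, 2 and 3. ApoE-/- Timp3-/- mice, which lack apolipoprotein E and tissue inhibitor of metalloproteinases 3 and are called double mutants here, gave libraries 4, 5 and 6. Both genotypes therefore lack apolipoprotein E, and the series holds no wild-type heart and no Timp3-/- heart with intact Apoe. The values are FPKM, fragment counts divided by transcript length and by the library's total of mapped fragments, so genes can be compared per length.

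The proteasome degrades proteins that carry a ubiquitin chain. Its core particle, the 20S, is a barrel of outer alpha rings (Psma genes) and inner beta rings (Psmb genes), and 3 beta subunits, Psmb5, Psmb6 and Psmb7, carry the proteolytic sites. The regulatory particle, the 19S, sits on the end of the barrel: its base holds the unfolding ATPases (Psmc genes) with the scaffolds Psmd1 and Psmd2 and the ubiquitin receptor Psmd4, and its lid holds Psmd14, which removes the ubiquitin chain. Other caps (Psme genes) can take the place of the 19S, Psmf1 encodes the inhibitor PI31, and dedicated chaperones assemble the core (Psmg1 to Psmg4) and the base (Psmd5, Psmd9 and Psmd10). In heart muscle the proteasome turns over sarcomere and signalling proteins, and its subunits are known to be made in balanced amounts.

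By part, the rule took 8 alpha genes, 8 beta genes, 6 base ATPases, 3 base subunits without ATPase activity, 8 lid genes, 3 base chaperones, 4 core chaperones, 5 caps and 1 inhibitor. It also took Psmc3ip by its symbol alone: this gene encodes a partner of meiotic recombination proteins and is no part of the proteasome. Of the 47, 45 passed the filter on low values (mean FPKM of at least 1 and a transcript of at least 300 nt). Psma8, a testis form of an alpha subunit, ranged from 0.0511 to 0.331 FPKM, and Psmb11, the thymus form of a catalytic subunit, was listed at 0 in 4 libraries and at most at 0.0126, so neither was tested.

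The coverage in the files added up to between 654 and 1339 aligned megabases per library. All 8 cardiomyocyte markers were present in every library and summed to between 15478 and 22690 FPKM. Timp3, the targeted gene, stood at 52.1, 38.0 and 36.3 FPKM in libraries 1, 2 and 3 and at 20.2, 28.0 and 29.6 in libraries 4, 5 and 6. The groups did not overlap, the difference was -0.61 on the log2(scaled FPKM + 1) scale (limma, adjusted p = 0.29), and an exact two-sided permutation test gave p = 0.1, its floor with 3 libraries per group. Timp3 reads thus remained in the double mutants, and the labels do not say which part of the gene the allele lacks. Apoe was low in both groups, at 2.98 ± 0.65 (SD, n = 3) and 2.52 ± 0.82 (SD, n = 3) scaled FPKM. Library 4 stood apart in red blood cell markers (7 of 9 found; summed 24056 FPKM against 191 to 2157 in the others). Atrial markers (6 of 6 found) summed to 1727 FPKM in library 1, 817 in library 2, 114 in library 3, 179 in library 4, 893 in library 5 and 1482 in library 6. Adipocyte markers (7 of 7 found) summed to 196 FPKM in library 1, 27.5 in library 5 and at most 4.54 in the others.

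Many proteasome genes have near-identical copies elsewhere in the mouse genome, mostly processed pseudogenes, which are reverse-transcribed copies of the spliced messenger RNA. Reads from such a gene can align to its copies. A search of all annotated transcripts with the members' coding sequences (at least 90% identity over at least 50% of the coding length) found copies for 17 of the 47 members, 33 copies in all. Of these, 19 copies of 13 members were listed in the deposited files, and for 12 members the copies held over 10% of the FPKM summed over member and copies. The stretches below show how alike they are, for the 3 members with the largest such shares. Each is 80 bases of coding sequence centred on a splice junction of the member, 5′ to 3′, from the reference transcripts of GENCODE M21 (build GRCm38), and capitals mark, in a copy, bases that differ from the member and, in the member, bases at which any shown copy differs.

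The first set is Psma3, an alpha subunit, coding bases 189 to 268, with its listed copies Gm13835 on chromosome 6 and Gm5406 on chromosome 16.
Psma3: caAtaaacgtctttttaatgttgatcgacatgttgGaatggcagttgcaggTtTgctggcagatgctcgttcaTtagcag
Gm13835: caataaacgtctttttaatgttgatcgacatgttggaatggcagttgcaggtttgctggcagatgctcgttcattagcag
Gm5406: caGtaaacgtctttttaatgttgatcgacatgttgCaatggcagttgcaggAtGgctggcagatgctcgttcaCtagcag
Gm13835 had 0 differences from Psma3 in this window and complete identity over 662 of the 765 coding bases, so no read within that stretch can be given to one or the other by its letters. Gm5406 had 5 differences in the window and 96.5% identity over the whole coding sequence.

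The second set is Psma5, another alpha subunit, coding bases 252 to 331, with its copies Gm8394 on chromosome 10 and Gm12989 on chromosome 4.
Psma5: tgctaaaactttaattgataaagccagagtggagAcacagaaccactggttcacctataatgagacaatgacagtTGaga
Gm8394: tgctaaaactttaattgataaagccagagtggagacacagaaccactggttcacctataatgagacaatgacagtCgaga
Gm12989: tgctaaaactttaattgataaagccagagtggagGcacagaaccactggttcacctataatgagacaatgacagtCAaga
Gm8394 differed from Psma5 at 1 base of the window and Gm12989 at 3, with 98.9% and 97.5% identity over the coding sequence.

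The third set is Psme2, a subunit of the interferon-inducible cap, coding bases 458 to 537, with Psme2b on chromosome 11, which the annotation lists as protein-coding and which the rule also took.
Psme2: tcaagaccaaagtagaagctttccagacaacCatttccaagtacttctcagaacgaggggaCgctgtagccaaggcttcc
Psme2b: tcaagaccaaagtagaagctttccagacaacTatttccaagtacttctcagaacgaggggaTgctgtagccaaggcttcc
These 2 genes differed at 2 bases of the window and were 99.3% identical over 717 coding bases.

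The deposited FPKM of these genes lay mostly at the copies. Psma3 itself was listed at 4.63, 2.71 and 4.06 FPKM in libraries 1, 2 and 3 and at 4.19, 3.42 and 3.87 in libraries 4, 5 and 6, while its copies together ranged from 27.4 to 34.0 FPKM. Over the 6 libraries 88.8% of the sum stood at the copies. Psma5 averaged 3.02 FPKM against 21.8 at its copies (87.8% of the sum), and its copies ranged from 17.9 to 27.02 FPKM. Psme2 averaged 2.67 FPKM against 22.6 for Psme2b. Lower shares stood at the copies of Psmd11 (66.2%, at Gm14048), Psmb3 (64.4%, at 5 listed copies), Psmd2 (55.4%, at Gm5422), Psma4 (51.6%, at Gm6542) and Psmc1 (41.1%, at Gm9575). Shares between 10% and 21% stood at copies of Psmb1 (20%), Psmb5 (13.4%), Psmd14 (12.3%) and Psme2b (10.6%). Whether RNA at a copy comes from the copy or from the member cannot be told apart in these values, so the level and the difference of each of these 12 members are uncertain. Psma2, Psmb6, Psme1 and Psmg3 have only copies that the files do not list, so the FPKM at those copies is not known. Psma3, Psmb3, Psmb5, Psmc1, Psmd2, Psme2 and Psme2b have such unlisted copies beside their listed ones. Their shares and sums hold the listed copies alone.

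**Figure D1:**
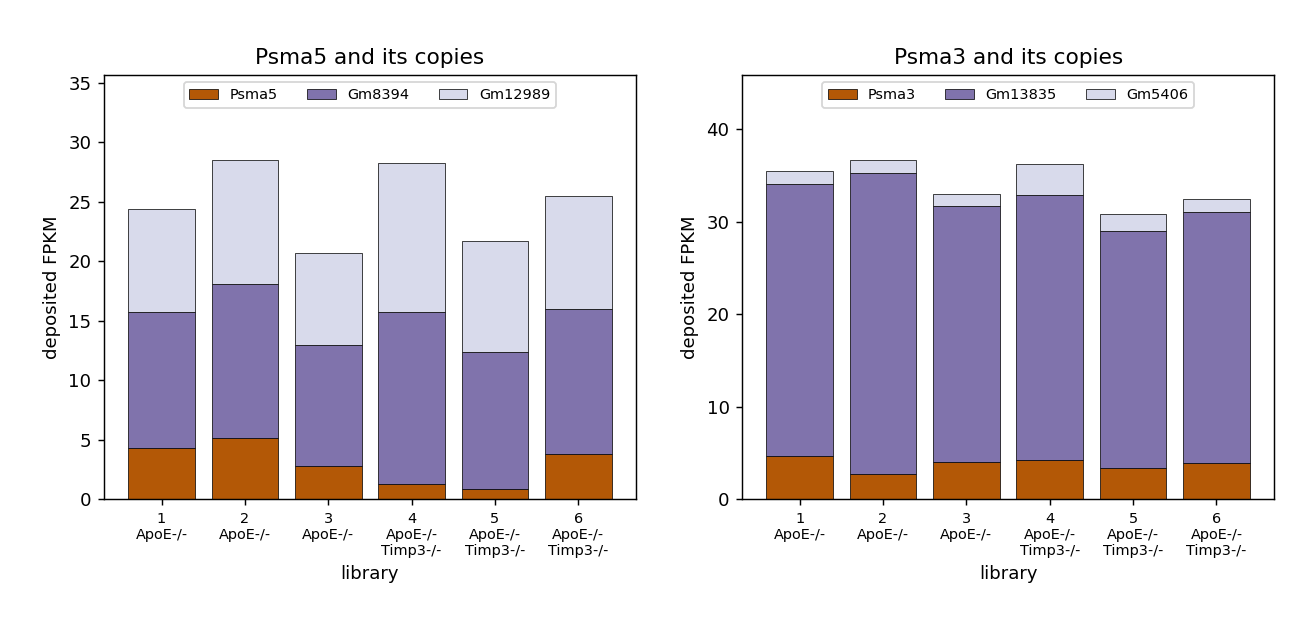
Deposited FPKM of Psma5 (left) and Psma3 (right) stacked with those of their near-identical copies, 1 bar per library with its genotype below it. The members themselves are the thin lowest segments, at most 5.12 FPKM for Psma5 and 4.63 for Psma3, and the copies make up most of every bar.

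Adding the copies brought the core subunits closer to one another, in a sum made only after these values had been looked at. As listed, the 14 core subunits tested ranged from 2.96 (Psma5) to 96.6 (Psmb7) scaled FPKM, a ratio of 32.7 between the highest and the lowest, with an SD of 1.53 on the log2 level. With copies added, the range was 6.39 (Psma2) to 96.6, a ratio of 15.1, with an SD of 0.87. Part of this narrowing is arithmetic, because copies can only add FPKM. The low Psma3 and Psma5 gained a mean of 30.3 and 21.8 FPKM, and the highest, Psmb7, gained 0 from its listed copy. Where the RNA at the copies comes from was not tested. Nothing was added to Psma2 itself, because neither of its 2 copies is listed in the files. The 17 subunits of the 19S spanned a ratio of 6.86 as listed (11.7 to 80.0 scaled FPKM) and 4.61 with copies added. Over the 12 members with over 10% of the summed FPKM at copies, the mean deposited FPKM ran from 2.67 (Psme2) to 29.1 (Psmb1) for the member alone and from 21.4 (Psmc1) to 36.4 (Psmb1) for the sum.

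**Figure D2:**
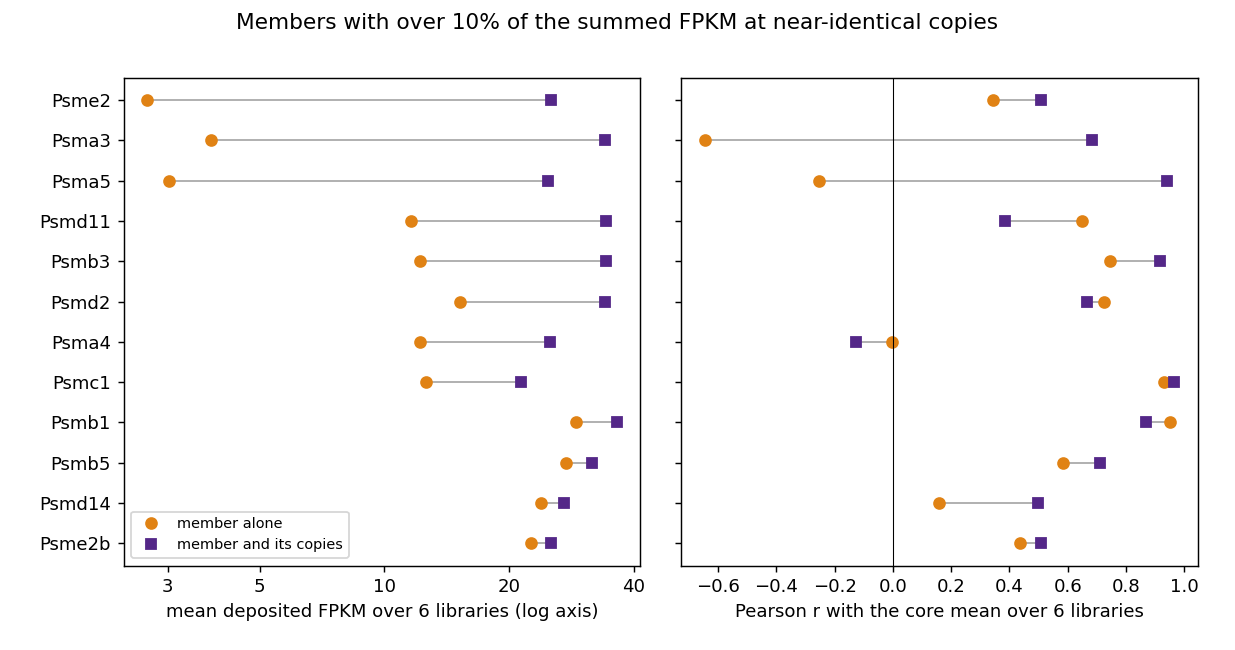
The 12 members with over 10% of the summed FPKM at copies, ordered by that share. The left panel gives the mean deposited FPKM over 6 libraries (log axis) of the member alone and of the member with its copies, and the right panel gives the Pearson correlation with the mean of the core subunits over 6 libraries. For members with copies, the core mean also holds the copies. Psme2, Psma3 and Psma5 move furthest in the left panel and Psma3 and Psma5 in the right, and the correlation of Psma4, Psmb1, Psmd2 and Psmd11 is lower with copies than without.

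Among the catalytic subunits, Psmb7 was the highest member of all at 96.6 ± 8.73 scaled FPKM (SD over 6 libraries), above Psmb6 at 44.4 ± 9.29 and Psmb5 at 27.3 ± 3.41. As deposited, Psmb6 ran from 34.5 to 62.8 FPKM and Psmb5 from 22.8 to 34.4, and both lay below the 82.8 FPKM that was lowest for Psmb7. That rank rests on a sum over transcripts: Psmb7 was listed at 46.0 to 64.1 FPKM for a transcript of 1160 nt and at 36.1 to 50.3 for one of 611 nt. The longer one alone overlapped the range of Psmb6. In every library it lay below Psma7, at 51.7 to 79.9 FPKM. With its listed copy added, Psmb5 reached 39.1 scaled FPKM in library 4, where Psmb6 stood at 61.4, and it stayed below Psmb6 in each library. The highest ATPase was Psmc3 at 80.0 ± 14.7 and the lowest as listed Psmc1 at 12.6 ± 1.59, which with its listed copy added stood at 21.4, above Psmc4 at 18.1. In the base, the scaffold Psmd1 stood at 41.0 ± 4.31 and its partner Psmd2 at 15.2 ± 1.18, or 34.2 with the listed copy of Psmd2 added. As listed, lid genes lay between 11.7 (Psmd11) and 28.3 (Psmd12), but with its copy added Psmd11 was the highest of them at 34.4 and Psmd6 the lowest at 17.3. The assembly chaperones lay below the medians of the 19S (23.4) and of the core (30.9): the base chaperones lay between 2.61 (Psmd10) and 8.03 (Psmd5) and the core chaperones between 2.82 (Psmg3) and 6.84 (Psmg2). Of the caps, Psme4, the nuclear and testis-rich cap PA200, was highest at 32.0 ± 5.03, ahead of Psme1 at 30.0 ± 6.50, a gap within the spread over libraries. Psmc3ip averaged 0.997, with 1.68, 0 and 0.817 FPKM in libraries 1, 2 and 3 and 1.30, 0.913 and 1.38 in libraries 4, 5 and 6.

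**Figure D3:**
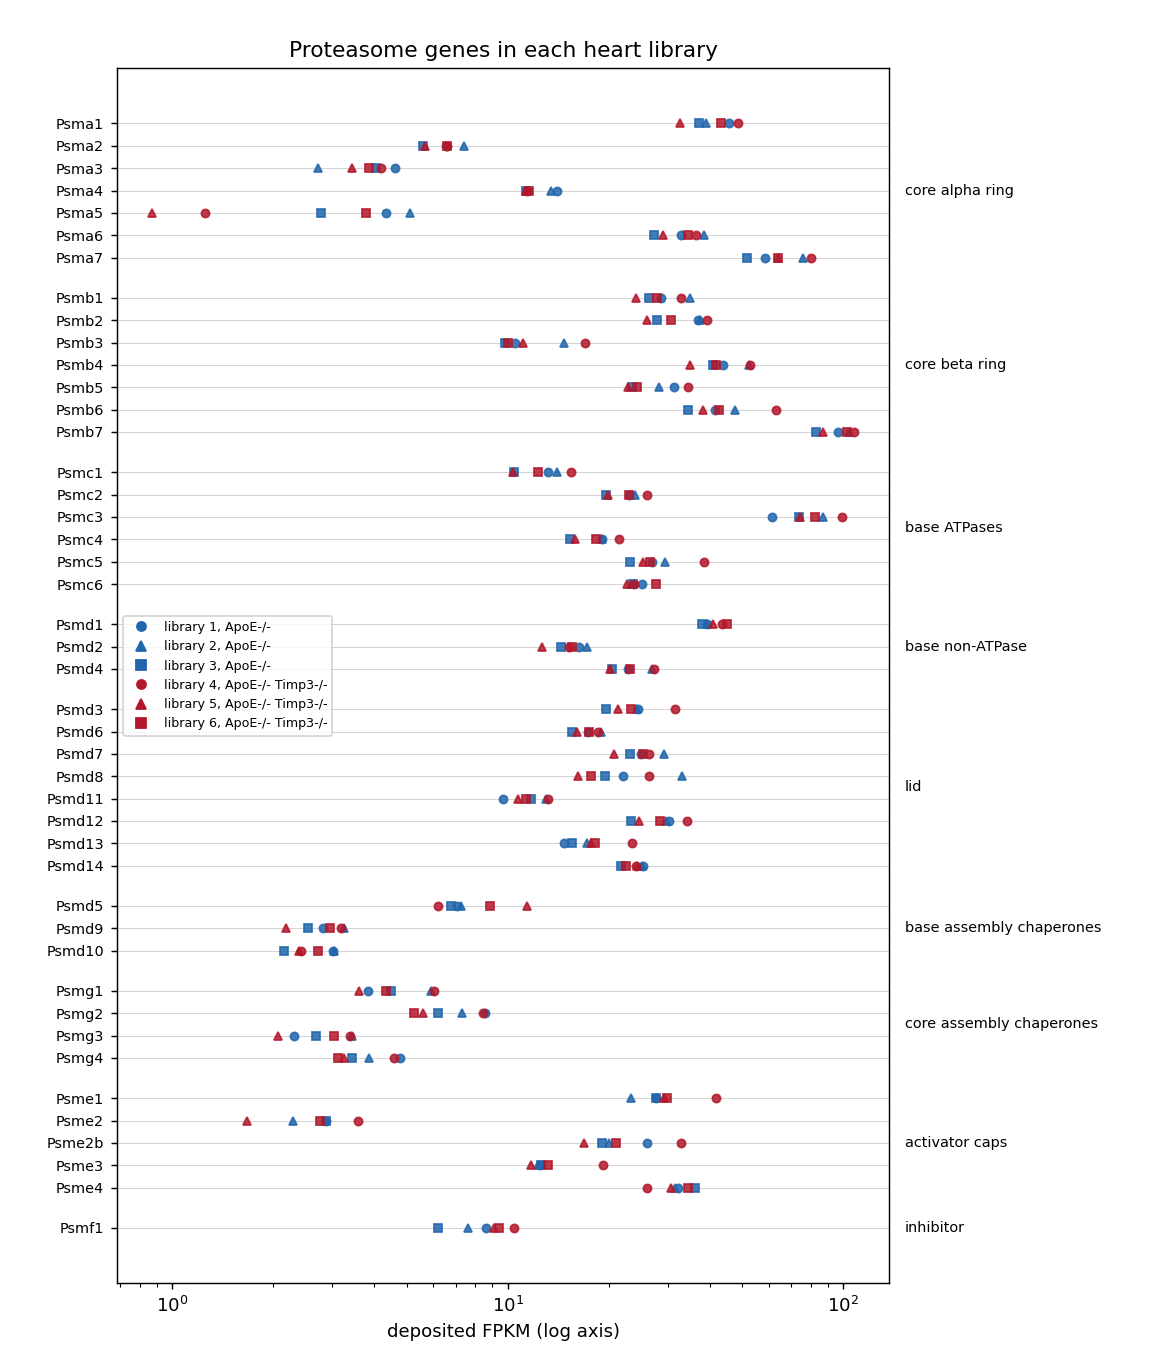
Deposited FPKM (log axis) of 44 proteasome genes in each of the 6 libraries, by particle part, with ApoE-/- libraries in blue and ApoE-/- Timp3-/- libraries in red. Psmc3ip, listed at 0 in library 2, and the 2 genes that were not tested are left out. Core and 19S subunits lie mostly between 10 and 100 FPKM, with Psma2, Psma3 and Psma5 lower, and the points of both colours intermingle for most genes.

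Between the genotypes, no proteasome gene passed the test. Of the 45 tested, 0 had an adjusted p under 0.05 (limma, Benjamini-Hochberg over all 11414 genes), beside 5 of all genes (0.0438%, of which 0.0263% higher and 0.0175% lower). The lowest adjusted p of a member was 0.26. At an unadjusted p under 0.05 there were 3 members, Psmf1, Psma5 and Psme1, or 2 higher and 1 lower, where 12.2% of all genes had such a p (6.97% higher and 5.21% lower). Groups without overlap were found for 3 members, all higher in the double mutants, Psmf1, Psmd13 and Psmd1, and for 0 in the other direction, against 9.97% of all genes higher and 9.23% lower. Both counts are near or under the background. The difference was above 0 for 33 members and below 0 for 12 (above 0 for 27 without further scaling), where 48.8% of all genes lay above 0. The median difference of the members was 0.08, and that of all genes -0.01. Without further scaling these medians were 0.015 and -0.066, and with quantile normalization 0.035 and -0.011. Markers of several cell types, though not of all, also lay mostly to one side of 0. Above 0 lay 7 of 8 cardiomyocyte markers (median 0.17), 6 of 6 atrial markers (median 1.69) and 5 of 5 red blood cell markers tested (median 2.82). Below 0 lay 8 of 8 endothelial markers (median -0.29), 8 of 8 fibroblast markers (median -0.37) and 6 of 6 adipocyte markers tested (median -0.68). Macrophage markers were split, 4 above and 4 below 0 (median -0.04). Of the smooth muscle and pericyte markers tested, 2 lay above and 5 below (median -0.34). The 4 skeletal muscle markers tested lay above 0 (median 0.23), as did the 1 lymphocyte marker tested (0.38). The endothelial markers summed to 156 to 197 FPKM in the control hearts and 110 to 163 in the double mutants, and the fibroblast markers to 224 to 407 and 232 to 265. The part of these cell types in the members' differences was not tested. On the log2(scaled FPKM + 1) scale, the 95% interval lay within log2 of 1.5 either way for 31 of the 45 members. It lay within 1 unit for 43. For low members such an interval can still exceed a 1.5-fold change in FPKM.

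**Figure D4:**
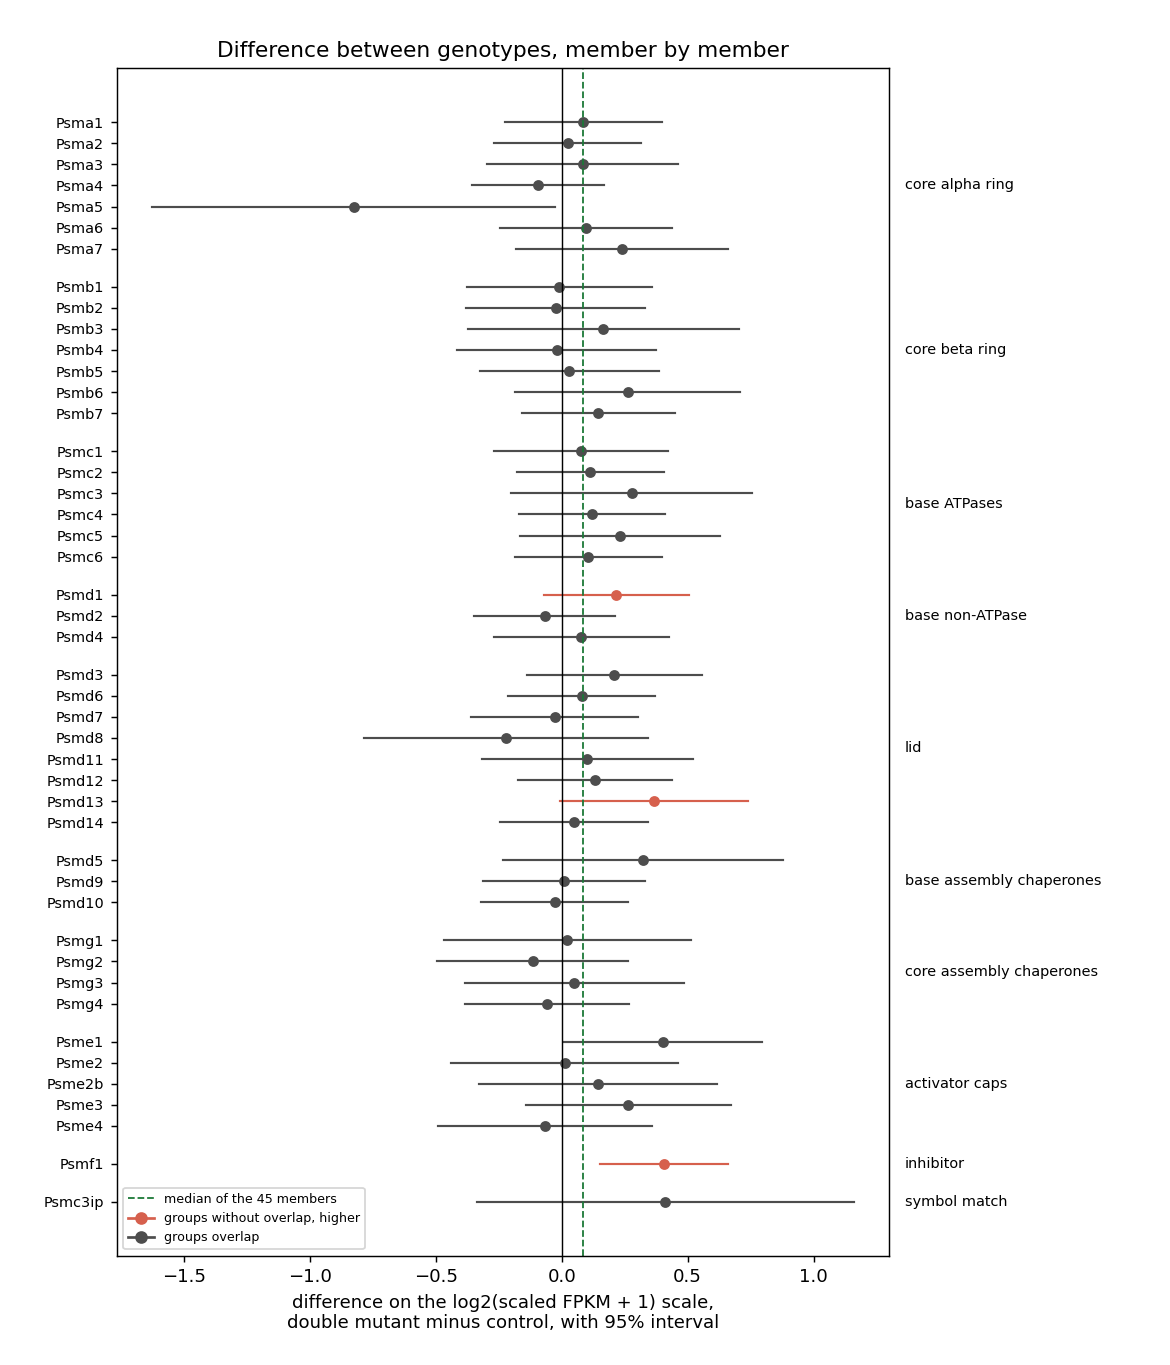
Difference of each of the 45 tested members on the log2(scaled FPKM + 1) scale, double mutant minus control, with its 95% interval from limma, by particle part. The intervals of all members but Psma5, Psme1 and Psmf1 include 0, and the dashed line marks the members' median of 0.08.

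The inhibitor gene Psmf1 (ENSMUSG00000032869, NCBIM37 chromosome 2, 151541548 to 151569922, minus strand) had the smallest p of the members. It was listed at 8.61, 7.59 and 6.18 FPKM in libraries 1, 2 and 3 and at 10.4, 9.09 and 9.42 in libraries 4, 5 and 6. Every double mutant value lay above every control value. The group means were 7.22 ± 0.444 and 9.89 ± 0.496 scaled FPKM (SD, n = 3 each), a difference of 0.41 (SE 0.11, adjusted p = 0.26). Over the 15 alternatives the difference ran from 0.34 to 0.57, with adjusted p from 0.063 to 0.62. The protein it encodes, PI31, inhibits the core in the test tube and is also known as an adaptor for proteasome transport in neurons.

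In the alpha ring, 5 of the 7 genes tested lay above 0 and 2 below, with a median of 0.08. Psma5 (ENSMUSG00000068749, NCBIM37 chromosome 3, 108059844 to 108082892, plus strand) had the largest difference of any member. It was listed at 4.33, 5.12 and 2.78 FPKM in libraries 1, 2 and 3 and at 1.25, 0.871 and 3.77 in libraries 4, 5 and 6. Libraries 4 and 5 were the lowest, while library 6 lay among the controls, so the groups overlapped. The difference was -0.83 (SE 0.34, adjusted p = 0.39), and it turned to 0.11 (adjusted p = 0.81) when the copies Gm8394 and Gm12989 were added: the sums were then 20.9, 28.4 and 22.4 scaled FPKM in the controls and 27.6, 24.2 and 25.2 in the double mutants. Within Psma5, the reference transcript of 387 nt was listed in control libraries at 1.06, 3.12 and 1.16 FPKM, and in double mutant libraries at 0, 0 and 1.74. Psma7, the highest alpha gene, had a difference of 0.24 (95% interval -0.18 to 0.66).

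In the beta ring, 4 of the 7 genes tested lay above 0 and 3 below, with a median of 0.03. The catalytic subunit Psmb5, which cuts after hydrophobic residues, was listed at 31.4, 28.3 and 23.5 FPKM in control hearts, and at 34.4, 22.8 and 24.3 in double mutant hearts, a difference of 0.03 (interval -0.32 to 0.38). Psmb6, which cuts after acidic residues, stood at 41.5, 47.6 and 34.5 FPKM against 62.8, 38.1 and 42.6, a difference of 0.26 (interval -0.19 to 0.71). Psmb7, which cuts after basic residues, stood at 96.3, 103.7 and 82.8 FPKM against 107.6, 87.2 and 102.7, a difference of 0.15 (interval -0.16 to 0.45). In each of the 3, library 4 was the highest. After scaling, libraries 5 and 6 lay among the controls for Psmb6 and Psmb7 and were the lowest of all for Psmb5. Psmb3 had a difference of 0.17 (interval -0.37 to 0.70) that depends on which transcripts and loci are counted. Its reference transcript of 766 nt was listed at 10.48, 2.65 and 9.83 FPKM in libraries 1, 2 and 3 and at 16.998, 4.85 and 0 in libraries 4, 5 and 6, with the rest at transcripts assembled in libraries 2, 5 and 6 alone, and with reference transcripts alone the difference was -0.66. With its 5 listed copies added, the difference was 0.34 (interval -0.14 to 0.82).

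All 6 base ATPases lay above 0, with differences between 0.08 (Psmc1) and 0.28 (Psmc3) and a median of 0.12, and the groups of all 6 overlapped. With the strongest transcript per gene, and without library 4, 5 of the 6 lay above 0; all 6 did in the other alternatives. Psmc3 was listed in control libraries at 61.3, 86.8 and 73.7 FPKM, and in double mutant libraries at 98.8, 74.4 and 82.3. The interval of its difference was -0.20 to 0.75. With a library left out, the difference itself, not its interval, ran from 0.06 to 0.41. Among the other base subunits Psmd1 (ENSMUSG00000026229, NCBIM37 chromosome 1, 87960962 to 88035726, plus strand) stood at 39.3, 39.1 and 38.0 FPKM against 43.3, 40.7 and 45.1. Its groups did not overlap, and the difference was 0.22 (SE 0.12, adjusted p = 0.54).

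Of the 8 lid genes, 6 lay above 0 and 2 below, with a median of 0.09. Psmd13 (ENSMUSG00000025487, NCBIM37 chromosome 7, 148067867 to 148084542, plus strand) was listed at 14.7, 17.2 and 15.5 FPKM in control hearts, and at 23.5, 17.7 and 18.2 in double mutant hearts. The groups did not overlap, with library 4 well above the rest, and the difference was 0.37 (SE 0.16, adjusted p = 0.42). Taking each gene's strongest transcript alone turned the difference to -0.13: the strongest, of 1989 nt, was listed at 14.7, 9.06 and 6.60 FPKM in libraries 1, 2 and 3, and another of 1096 nt was listed at 0 in library 1 and at 8.13 to 12.6 FPKM in the others. Psmd3 had a difference of 0.21 and Psmd12 one of 0.13, both with overlapping groups.

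The chaperones showed no common direction. The base chaperones had differences of 0.32 (Psmd5), 0.01 (Psmd9) and -0.03 (Psmd10), and the core chaperones ranged from -0.12 (Psmg2) to 0.05 (Psmg3). Psmd5 was listed in control libraries at 7.06, 7.25 and 6.78 FPKM, and in double mutant libraries at 6.21, 11.4 and 8.86, so as deposited the double mutants lay on both sides of the controls.

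Among the caps, Psme1 (ENSMUSG00000022216, NCBIM37 chromosome 14, 56196960 to 56200366, plus strand), the partner of Psme2 in the interferon-inducible cap, was listed at 27.7, 23.3 and 27.7 FPKM in control hearts, and at 41.8, 29.3 and 29.8 in double mutant hearts. Library 4 was far above the rest, and after scaling the groups overlapped. The difference was 0.40 (SE 0.17, adjusted p = 0.40). Psme3, the nuclear cap, stood at 12.4, 12.3 and 12.6 FPKM against 19.3, 11.7 and 13.2, a difference of 0.26 (adjusted p = 0.60) in which library 4 was again alone. Psme4 went against the others in library 4, where it was at its lowest, 25.9 FPKM against 30.6 to 36.2 elsewhere, and its difference was -0.07.

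Library 4 was the highest of the 6 for 22 of the 45 members (48.9%), where 24.1% of all genes had their highest value in it, and library 2 for 16 (35.6%, against 18.8%). Library 1 was the lowest for 27 members (60.0%), against 18.0% of all genes. The median deviation of the members from their own mean, on the log2(scaled FPKM + 1) scale, was -0.18, 0.10 and -0.02 in libraries 1, 2 and 3 and 0.21, -0.02 and 0.00 in libraries 4, 5 and 6. Each genotype thus held a library that stood high, and the low one was a control. In the 14 core subunits the medians were -0.19, 0.18 and -0.07 in the controls and 0.18, -0.03 and -0.04 in the double mutants. In the 17 subunits of the 19S they were -0.19, 0.08 and -0.04, and 0.19, 0.00 and 0.00. Library 4 was also the one with the highest sum of red blood cell markers, and library 1 had the fewest aligned megabases, the highest sums of adipocyte, atrial and fibroblast markers and the highest sum of macrophage markers (154 FPKM against 49.3 to 74.9). The median deviation of the 8 cardiomyocyte markers was lowest in library 1, at -0.35, and highest in library 4, at 0.26, as it was for the members. It was -0.06 for library 2, 0.00 for library 3, 0.10 for library 5 and -0.07 for library 6. The part of any of these in the members' values was not tested. In bulk tissue fewer cells of a type and less RNA per cell cannot be told apart.

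**Figure D5:**
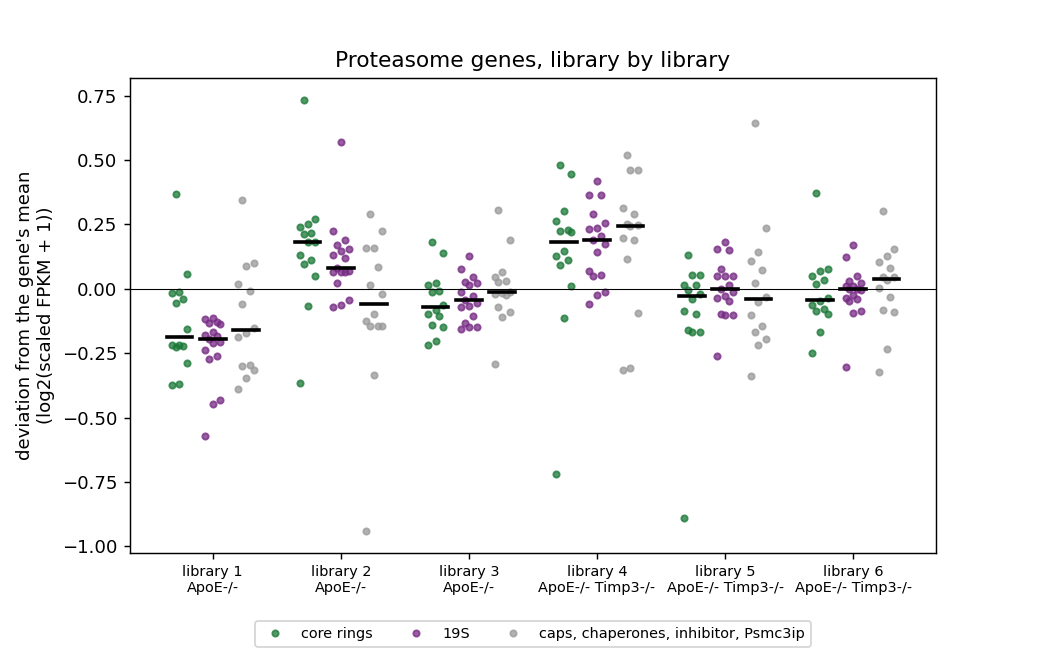
Deviation of each tested member from its own mean over the 6 libraries, on the log2(scaled FPKM + 1) scale, by library and genotype, with core subunits in green, 19S subunits in purple and the rest in grey. Black bars mark medians, which are low in library 1 and high in library 4 in each of the 3 sets, and high in library 2 for the core and the 19S.

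The count of members without overlap depended on single libraries. Without library 2, a control, it rose to 17 of 45 higher in the double mutants (37.8%, against 15.6% of all genes in that fit). Without library 1 it was 3 of 44 higher (6.82%, against 14.5%) and the median difference fell from 0.08 to 0.01. Without library 4 it was 4 of 44 higher (9.09%, against 17.3% of all genes) and 4 lower (against 16.6%), with a median of 0.04.

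Many subunits went up and down together across libraries. The Pearson correlation of each member with the mean of the core subunits (the gene itself left out) had a median of 0.69 over the 45 members, against 0.04 over all genes tested, over the same 6 libraries and with the same scaling for every gene. A correlation over 0.8 was found for 14 of 45 members (31.1%) and for 6.47% of all genes. The highest were the base chaperone Psmd9 (0.95), and the beta subunits Psmb4 (0.95) and Psmb1 (0.95). The lowest were Psma3 (-0.64), Psmc3ip (-0.60) and the base chaperone Psmd5 (-0.36). With copies added, both to the members and to the core mean, the correlation was 0.68 for Psma3 and 0.94 for Psma5 (-0.25 as listed). The correlation fell for Psmd11 (0.65 to 0.38), Psma4 (-0.00379 to -0.128), Psmd2 (0.73 to 0.66) and Psmb1 (0.95 to 0.87). The median over the core went from 0.74 to 0.86. Because the core mean changed too, members without copies also moved, such as Psmd4 from 0.95 to 0.99. The caps had a median of 0.34, from -0.36 (Psme4) to 0.53 (Psme3), and Psmf1 stood at 0.15. Likeness to the core was not limited to the members: the 2 immunoproteasome subunits tested, which the rule left out, had 0.67 and 0.89. Among the lists described below, the proteasome partners had a median of 0.15 (16.7% over 0.8). The ubiquitin list had a median of 0.29 (13.6% over 0.8). Medians were 0.13 for the p97 genes, -0.15 for the NFE2L1 pathway and -0.49 for the heart and muscle ligases. These correlations describe 6 libraries and carry no test.

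Many proteasome promoters are known to be read by the transcription factor NFE2L1, which binds antioxidant response elements when proteasome activity falls. The core of that element, TGACNNNGC on either strand, was searched in the RefSeq promoter windows (build GRCm38.p6, 250 bases before to 50 after the start), which held 39 of the 47 members. It was found for 6 of the 39 (15.4%), Psmb5, Psmb6, Psmc6, Psmd9, Psmd12 and Psme4, against 14.0% of all genes and 12.4% of all windows of that length. The CCAAT box, searched on both strands and able to share at most 1 letter with the element, was found for 14 of the 39 (35.9%), against 41.1% of all genes. Both shares are near the background. The catalytic subunit Psmb7 was among the 8 members without a window, so it was not searched. The windows of the 2 catalytic subunits with the element are shown with the match in capitals, 5′ to 3′ on the strand of the gene.
Psmb5, GRCm38.p6 chr14:54617946-54618245, minus strand: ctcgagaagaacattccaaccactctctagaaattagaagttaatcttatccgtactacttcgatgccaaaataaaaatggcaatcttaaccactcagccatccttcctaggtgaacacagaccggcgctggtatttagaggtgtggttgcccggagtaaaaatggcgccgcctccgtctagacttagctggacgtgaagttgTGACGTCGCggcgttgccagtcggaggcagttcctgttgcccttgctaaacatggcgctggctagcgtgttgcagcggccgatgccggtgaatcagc
Psmb6, GRCm38.p6 chr11:70525107-70525406, plus strand: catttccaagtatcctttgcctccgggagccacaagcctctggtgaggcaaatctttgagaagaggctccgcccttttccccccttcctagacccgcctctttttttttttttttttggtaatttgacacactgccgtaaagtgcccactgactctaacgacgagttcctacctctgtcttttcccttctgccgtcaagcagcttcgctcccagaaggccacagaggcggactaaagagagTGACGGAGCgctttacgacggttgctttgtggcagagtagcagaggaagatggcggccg
The differences of the genes with the element were 0.03 (Psmb5), 0.26 (Psmb6), 0.11 (Psmc6), 0.01 (Psmd9), 0.13 (Psmd12) and -0.07 (Psme4). All but that of Psme4 lay above 0, beside 33 of the 45 members tested. The correlations of the genes with the element with the core mean ran from -0.36 (Psme4) to 0.95 (Psmd9).

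Of the 12 genes in the NFE2L1 pathway, 0 passed the adjusted threshold. At an unadjusted p under 0.05 there were 1 higher and 2 lower (6.97% and 5.21% of all genes). Nfe2l1 itself was listed in control libraries at 95.1, 76.1 and 81.0 FPKM, and in double mutant libraries at 94.1, 69.7 and 82.6, a difference of 0.04 (interval -0.26 to 0.33). Its relative Nfe2l2, the main factor of the oxidant response, stood at 24.5, 20.7 and 20.7 FPKM against 24.0, 38.4 and 34.0, a difference of 0.58 (adjusted p = 0.36). Syvn1, a ubiquitin ligase of the endoplasmic reticulum, stood at 3.83, 3.49 and 3.42 FPKM against 2.83, 2.20 and 2.64, a difference of -0.31 (adjusted p = 0.35), with no overlap.

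The list of ubiquitin genes, the activating enzymes and the conjugating enzymes had 22 genes, 0 of them past the adjusted threshold, with 5 higher and 0 lower at an unadjusted p under 0.05 (6.97% and 5.21% of all genes) and a median of 0.11. Ube2l3, a conjugating enzyme, was listed at 5.90, 6.87 and 4.40 FPKM in control hearts, and at 11.7, 8.53 and 8.04 in double mutant hearts, a difference of 0.70 (adjusted p = 0.26). Rps27a, which encodes ubiquitin fused to a ribosomal protein, stood at 17.4, 12.7 and 14.0 FPKM against 22.7, 18.1 and 19.2, a difference of 0.50 (adjusted p = 0.26) that turned to -0.45 with its strongest transcript alone. In both, library 4 was the highest.

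The other lists also had 0 genes past the adjusted threshold. The 18 partners of the proteasome, such as shuttle factors and deubiquitinases, had a median of -0.02. At an unadjusted p under 0.05 there were 0 of them (12.2% of all genes). The 2 of them with the smallest p were the shuttle factor Ubqln4 (-0.36, adjusted p = 0.42) and Midn, which carries proteins to the proteasome without ubiquitin (0.33, adjusted p = 0.46). The 21 heart and muscle ubiquitin ligases tested of 22 had a median of -0.10, with 8 above 0 and 13 below. At an unadjusted p under 0.05 there were 0 higher and 1 lower (6.97% and 5.21% of all genes). Fbxo40, a muscle ligase subunit that targets an insulin signalling adaptor, had a difference of -0.48 (adjusted p = 0.38) and turned to 0.41 with reference transcripts alone, and Trim72, a membrane repair protein of muscle, one of -0.48 (adjusted p = 0.43). The 15 genes of the p97 segregase, which pulls ubiquitinated proteins out of complexes, had a median of -0.08. Vcp, the segregase itself, had a difference of 0.30 and its cofactor Ufd1 one of -0.18, and neither passed at an unadjusted p under 0.05.

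The immunoproteasome subunits that the rule left out moved apart within the double mutants. These subunits replace the catalytic ones of the core in immune cells and under interferon. Psmb8 was listed in control libraries at 5.50, 6.71 and 6.07 FPKM, and in double mutant libraries at 9.69, 3.04 and 3.28, and Psmb10 at 12.99, 19.9 and 12.2 against 22.5, 10.04 and 10.3. For both, library 4 was the highest, and as deposited libraries 5 and 6 were the lowest of all 6; after scaling, library 1 lay below library 5 for Psmb10. The differences were -0.26 (adjusted p = 0.81) and -0.06 (adjusted p = 0.96). Psmb9 was not tested because a transcript of it is absent from a file. Macrophage markers (8 of 8 found) summed to 62.4 FPKM in library 4, within the 49.3 to 154 FPKM of the others, and lymphocyte markers (8 of 8 found) to 5.10 against 1.68 to 4.86. Their part in these values was not tested.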

How the data were processed

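The authors deposited 1 Cufflinks transcript file per heart library, holding an FPKM and a coverage for each transcript as text in the attribute column, and no other unit. Per the submitters' processing notes, TopHat, Bowtie and Cufflinks were used with the build NCBIM37. For their versions, settings and strand, nothing is given in the sources used here. Reads per gene are not in the files, so a count test and counting intervals could not be had. Apart from the word littermates the labels do not say how the hearts are related, so each p-value reflects only the spread among these libraries, which may be technical.

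Gene values were summed over reference transcripts and assembled transcripts that overlap at least 50% of exonic bases. Of 36757 genes, 193 were left out because a transcript was absent from a file. Genes with a mean FPKM of at least 1 and a transcript of at least 300 nt entered the test. Scaling used the median of ratios (0.896 to 1.17). A two-sided limma 3.58.1 fit (R 4.3.3, intensity trend) on log2(scaled FPKM + 1) was adjusted by Benjamini-Hochberg over 11414 genes at 0.05; this scale understates the change of low genes. Single-library values are as deposited, and means ± SD are scaled. The fit was tested on simulated data. A listed 0 may be an estimate that failed. Copies were searched with blastn 2.17.0. GENCODE M21 served for symbols and transcript sequences, and gene coordinates are from the files.

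Named are the catalytic subunits, the 10 members with the smallest p, per part the member with the smallest p and those with the highest and lowest level, members at 0 or not tested, the 2 genes of each list with the smallest p, Timp3, Apoe and Nfe2l1, and the 3 highest and lowest correlations. Psma2, Psma4, Psmc4, Psmc6, Psmd4, Psmd6, Psmd14 and Psme2b were named after their values were seen, for their copies, level or promoter. Members and lists were chosen with earlier results of these data known. Alternatives changed scaling, pseudocount, filter, transcripts used, library weights, copies and the libraries included.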

Additional observations from a re-analysis of the deposited data

How the results depend on the processing

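No proteasome gene reached an adjusted p under 0.05 in limma under any of the 15 alternatives run, and the members' median difference stayed above 0 in each, down to 0.01 without library 1. Differences changed sign often: 70 values of 23 of the 43 named genes did. Larger ones were among them, such as those of Psma5 (-0.83), Psmd13 (0.37), Rps27a (0.50) and Fbxo40 (-0.48). No paired analysis was possible because the genotypes share no replicate numbers. An estimate from 3 against 3 libraries is imprecise, and reads per gene are not known, so low members such as Psma3, Psma5 and Psme2 rest on an unknown depth. The cause of the changes below was not tested unless named. Values are differences or medians on the log2(scaled FPKM + pseudocount) scale, or counts of genes.

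Over all genes, 5 were called, but 3 with a pseudocount of 0.1, 9 without the filter, 1 at a mean FPKM of at least 5, 3 with the strongest transcript per gene, 105 with libraries weighted by spread and 3 to 11 with a library left out. Members without overlap and higher numbered 3, but 5 with the strongest transcript (8.68% of all genes) and 3 to 17 with a library left out (12.8% to 17.3% of all genes). Members without overlap and lower numbered 0, but 1 each with quantile normalization, without the filter and with copies added, 2 with reference transcripts alone (8.39% of all genes), 3 with the strongest transcript (7.73%) and 0 to 4 with a library left out (12.5% to 16.6%). Members at an unadjusted p under 0.05 numbered 3, but 1 each without further scaling and with quantile normalization, and 1 to 4 with a library left out. The alpha ring median was -0.0195 with quantile normalization and -0.13 with the strongest transcript. The base chaperone median was 0.28 at a mean FPKM of at least 5, where 1 gene was left. The immunoproteasome median was 0.41 with the strongest transcript. The ubiquitin list median was 0.05003 without further scaling and 0.02 with quantile normalization, and the p97 median was -0.14 without further scaling.

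Without further scaling the sign turned for Psmb5 (-0.0405), Psmd9 (-0.0415), Psme2 (-0.0348) and Nfe2l1 (-0.037). With quantile normalization it turned for Psmb5 (-0.0739), Psmb7 (-0.028), Psmd10 (0.0131) and Nfe2l1 (-0.119). At a mean FPKM of at least 5 it turned for Psmb5 (-0.0146) and Nfe2l1 (-0.0105), and without the filter for Psmb1 (0.00793). With libraries weighted by spread it turned for Psma3 (-0.0624), Psmb5 (-0.0286), Psmd9 (-0.0232), Psmd10 (0.0698), Psmd11 (-0.016), Psme2 (-0.215), Psmg3 (-0.0493) and Nfe2l1 (-0.0749). With reference transcripts alone it turned for Psmb3 (-0.655), Psmd2 (0.0231), Psmd9 (-0.000786), Psme4 (0.183) and Fbxo40 (0.412). With the strongest transcript it turned for Psma3 (-0.192), Psmb3 (-0.664), Psmb8 (1.12), Psmd1 (-0.0154), Psmd2 (0.0133), Psmd9 (-0.00842), Psmd13 (-0.132), Psme4 (0.172), Fbxo40 (0.402), Nfe2l1 (-0.0712) and Rps27a (-0.446). With copies added, a choice made after seeing the data, it turned for Psma3 (-0.00861), Psma5 (0.108) and Psmd2 (0.0637), since these sums hold more loci.

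With a library left out, some differences spanned 0: Psma3 from -0.0778 to 0.197, Psmb1 from -0.127 to 0.117, Psmb3 from -0.0142 to 0.344, Psmb4 from -0.139 to 0.0954, Psmb5 from -0.112 to 0.125, Psmb10 from -0.388 to 0.158, Psmc1 from -0.0307 to 0.17, Psmd2 from -0.143 to 0.00047, Psmd9 from -0.0653 to 0.0909, Psmd10 from -0.0891 to 0.0448, Psmd11 from -0.091 to 0.205, Psme2 from -0.14 to 0.188, Psme4 from -0.179 to 0.0731, Psmg2 from -0.269 to 0.0202, Psmg3 from -0.111 to 0.175 and Nfe2l1 from -0.0316 to 0.0888.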
